A study of Mus musculus with 9 samples.

Results

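The genes described here are 41 mouse genes of DNA replication and S phase, given as a list of symbols, with no threshold on measured values, and matched to 41 of the 56398 features in the deposited gene tables. They comprise the 6 subunits of the MCM2-7 helicase, 5 origin licensing genes, 6 helicase activation genes, 6 polymerase and primase genes, 6 genes of the sliding clamp and its loader, 2 single-strand binding genes, 2 genes that process Okazaki fragments, 4 nucleotide supply genes and 4 regulators of the G1/S transition. RNA sequencing of 9 BALB/c mouse samples gave 3 libraries in each of 3 groups. The AC libraries were colon tumours of CT26 cells, a mouse colon carcinoma line grown from injected cells in syngeneic mice, after Astragalus and Curcuma phaeocaulis Valeton mixed at 2 parts to 1 part and given once a day at 6 g/kg. The model libraries were CT26 tumours of mice given saline once a day, also at 6 g/kg, and the Sham libraries were healthy colon. The labels give neither the age of the mice nor the site of injection, and they do not say whether each library is a different mouse. The p-values thus measure the spread among these libraries alone, and that spread can be technical.

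In G1, the origin recognition complex, Cdc6 and Cdt1 load the MCM2-7 ring onto DNA in an inactive form, and geminin blocks a further round of loading by binding Cdt1. In S phase, Mcm10, Cdc45 and the GINS complex turn the ring into a moving helicase, primase and the replicative polymerases copy the strands, and the PCNA ring, placed on DNA by the RFC loader, tethers the polymerases. E2F transcription factors, released from retinoblastoma proteins by cyclin-dependent kinases, switch on most of these genes at the G1/S boundary, and in healthy colon most dividing epithelial cells lie in the lower part of the crypts.

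E2F factors bind short GC-rich sites, so the promoter windows of the genes were searched for them. RefSeq (build GRCm38.p6) held windows of 250 bases before and 50 bases after a transcription start for 32 of the 41 genes. The letters TTTCCCGC, TTTCGCGC, TTTGCCGC or TTTGGCGC were looked for on both strands, with overlapping matches counted. They stood in a window of 13 of the 32 genes (40.6%), against 2.6% of all 27025 genes with such windows. The letters CCAAT, read on both strands in the same way, stood in 62.5% of the 32 genes and 41.1% of all genes. The sequences below are the stretches around the E2F letters that lie upstream of the gene in both annotations. They were chosen by that position alone, without use of measured levels. The capitals mark the matched letters and the stretches run 5′ to 3′ on the strand of the gene. The Mcm5 stretch lies at chr8:75109336-75109387 (plus strand), the Mcm6 stretch at chr1:128359725-128359835 (minus strand) and the Pola1 stretch at chrX:93632266-93632313 (minus strand).
Mcm5: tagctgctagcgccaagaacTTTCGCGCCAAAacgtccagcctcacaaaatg
Mcm6: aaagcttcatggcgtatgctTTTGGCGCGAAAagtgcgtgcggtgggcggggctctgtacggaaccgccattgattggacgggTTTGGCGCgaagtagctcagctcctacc
Pola1: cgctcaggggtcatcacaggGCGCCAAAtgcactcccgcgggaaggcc
In Mcm5 and Mcm6, 2 matches on opposite strands overlap in a run of capitals, and Mcm6 holds a further match closer to its start. Among the 13 genes with a match were also E2f2, Cdt1, Lig1, Pold1, Mcm3, Mcm7, Orc1, Cdc6, Gins3 and Rfc3. The median log2 fold change in model tumours against Sham, described in the next paragraphs, was 2.14 for the 13 genes with a match (range -1.12 to 3.01) and 1.72 for the 19 without one (range 0.72 to 3.33). All Sham libraries were included, and the difference between these sets of genes was not tested. Windows were not used here for Mcm4, Gmnn, Gins1, Gins2, Gins4, Prim2, Pole, Rfc2 and Ccne2.

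Total counts per library ran from 15690038 to 23476056, and all 41 genes were detected in every library and passed the filter on low counts in every comparison. Sham 1 stood apart from the other Sham libraries, and the log2 fold changes of the 41 genes in model tumours against Sham are given with and without it. As defining markers of colon epithelium, Epcam and Vil1 were high in the Sham libraries, where the summed level of 10 epithelial markers was 22300, 31400 and 31800 CPM (read counts relative to library size, scaled by TMM over the 9 libraries). The same sum was 292, 274 and 956 CPM in AC tumours and 530, 230 and 196 CPM in model tumours, so these markers were low in tissue labelled as colon tumour. The summed level of 8 macrophage markers was 838 to 1210 CPM in AC tumours, 744 to 982 in model tumours and 228 to 239 in Sham colon. Against Sham, 7 of these 8 had log2 fold changes above 0 in each tumour group. The other 1 was below 0, at -2.27 in model tumours and -2.71 in AC tumours. That of 7 crypt markers was 162 to 173 CPM in AC tumours, 159 to 186 in model tumours and 146 to 152 in Sham colon. The near-equal sums hide changes in single crypt markers. Of the 6 tested against Sham, 2 had log2 fold changes above 0 and 4 below 0 in each tumour group. Their median was -3.06 in model tumours and -2.18 in AC tumours. Of the crypt markers, Lgr5 was at 0 in AC 1 and AC 3, and Olfm4 in model 3, Sham 2 and Sham 3. The part of cell type makeup in the results below was not tested.

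Most of the replication genes were higher in tumours than in healthy colon. Summed over the 41 genes, the level was 2910, 2920 and 2880 CPM in AC tumours, 3080, 2990 and 2920 CPM in model tumours, and 1350, 616 and 586 CPM in Sham colon. The 6 tumours lay close together, every AC library was below every model library although AC 2 and model 3 were equal after rounding, and Sham 1 lay between the tumours and the other Sham libraries. In model tumours against Sham colon, 34 of the 41 genes rose and 1 fell by edgeR's quasi-likelihood test at an adjusted p of 0.05, and 6 were not called. Over all genes tested in this comparison, 36.8% were called higher and 32.9% lower. The median log2 fold change of the 41 genes was 1.72 (range -1.12 to 3.48), against 0.12 over all 18228 genes tested. In 37 genes every model library lay above every Sham library, which was so for 41.3% of all genes, and in 1 gene every model library lay below, against 35.6% of all genes. An unadjusted p under 0.05 was found for 37 of the 41 genes and for 72.5% of all genes. In bulk tissue, fewer cells of a type and less RNA per cell cannot be told apart.

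**Figure D1:**
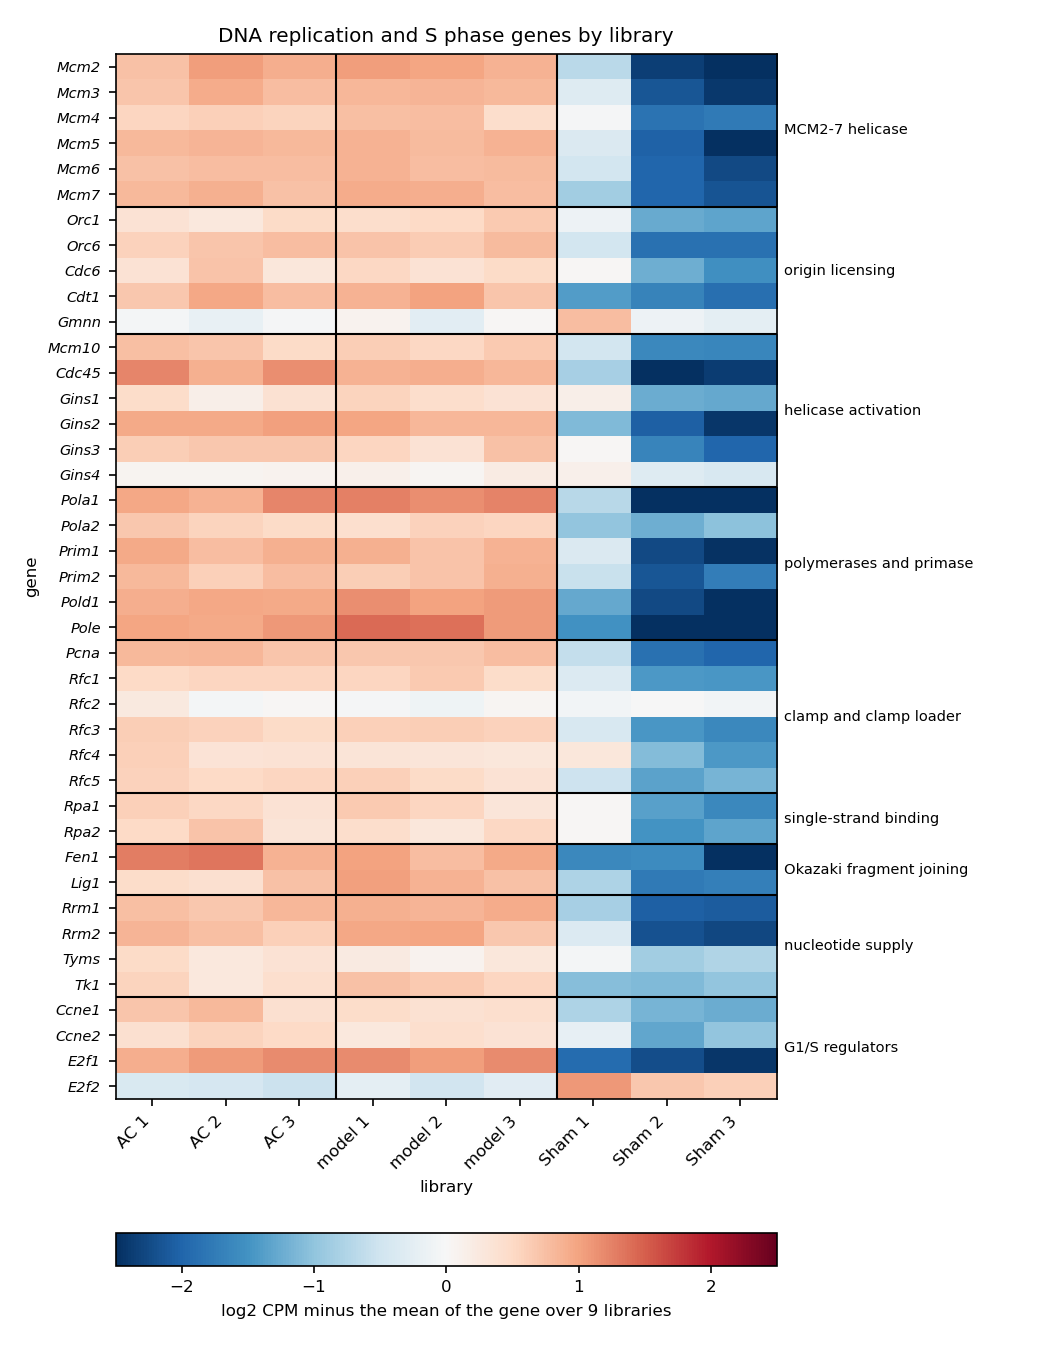
Level of each of the 41 genes in each library, as log2 CPM minus the mean of that gene over the 9 libraries, with genes in rows by role and libraries in columns by group (colours stop at 2.5 in either direction). The AC and model columns look alike, Sham 2 and Sham 3 are lowest for most genes, Sham 1 lies between, and E2f2 is highest in the Sham columns.

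All 6 genes of the MCM2-7 helicase, the ring that unwinds the double helix ahead of the fork, rose in model tumours, with log2 fold changes from 1.61 to 2.56. Mcm2 (ENSMUSG00000002870, chr6:88883474-88898780, minus strand) changed most, at 113, 140 and 127 CPM in AC tumours, 140, 135 and 123 CPM in model tumours, and 42.3, 13.2 and 11.6 CPM in Sham colon. Every tumour was above every colon library, and within colon Sham 1 was about as far from the others as from the tumours on a log scale. Mcm2 rose by 2.56 on the log2 scale in model tumours against Sham (SE 0.543, edgeR adjusted p = 0.00526), and by 3.46 without Sham 1. Mcm4 (ENSMUSG00000022673, chr16:15623897-15637400, minus strand) changed least of the 6, at 99.8, 104 and 102 CPM in AC tumours, 116, 118 and 93.5 CPM in model tumours, and 67.3, 19.3 and 20.3 CPM in Sham colon. Its groups of tumours and colon did not overlap, and Sham 1 was more than 3 times as high as Sham 2. Mcm4 rose by 1.61 (SE 0.532, edgeR adjusted p = 0.0319), and by 2.5 without Sham 1. Mcm3, Mcm5, Mcm6 and Mcm7 lay between, at 2.12, 2.18, 2.14 and 2.43, and at 3.13, 3.18, 2.96 and 2.98 without Sham 1.

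Of the 5 genes that license origins, 4 rose and Gmnn was not called. Cdt1 (ENSMUSG00000006585, chr8:122568015-122573554, plus strand), which brings MCM2-7 to origins, stood at 39.6, 48.4 and 42.3 CPM in AC tumours, 45.4, 49.8 and 40.2 CPM in model tumours, and 9.43, 7.79 and 6.74 CPM in Sham colon. Its colon libraries were close to each other, and all were far below the tumours. In model tumours against Sham, Cdt1 rose by 2.51 on the log2 scale (SE 0.212, edgeR adjusted p = 0.000115), and by 2.68 without Sham 1. Gmnn (ENSMUSG00000006715, chr13:24751845-24761923, minus strand), the gene of geminin, the inhibitor of Cdt1, stood at 22.2, 20.2 and 22.4 CPM in AC tumours, 24.1, 18.9 and 23.4 CPM in model tumours, and 39.1, 20.9 and 19.2 CPM in Sham colon. Sham 1 was highest, and the tumours overlapped with Sham 2 and Sham 3. Gmnn had a log2 fold change of -0.25 (95% interval -1.04 to 0.54, edgeR adjusted p = 0.522) with all libraries, 0.18 without Sham 1, and 0.35 with library totals in place of TMM factors. Orc6 and Orc1, subunits of the origin recognition complex, had log2 fold changes of 1.95 and 1.33, and Cdc6, the ATPase that recruits the helicase with Cdt1, had 1.20. Without Sham 1 the values were 2.62 for Orc6, 1.85 for Orc1 and 1.86 for Cdc6. For these 3 genes the lowest model library lay above Sham 1, with 8.57 against 5.77 CPM for Orc1, 49.3 against 23.1 CPM for Orc6 and 22.4 against 17.7 CPM for Cdc6.

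Helicase activation was the role with the most uncalled genes: 3 of 6 rose. Gins2 (ENSMUSG00000031821, chr8:120578633-120589304, minus strand), a subunit of the GINS complex, stood at 19.0, 18.9 and 20.1 CPM in AC tumours, 19.6, 17.5 and 17.5 CPM in model tumours, and 4.60, 2.41 and 1.84 CPM in Sham colon. Gins2 rose by 2.63 on the log2 scale (SE 0.389, edgeR adjusted p = 0.00111), and by 3.14 without Sham 1, and the tumours did not overlap with colon. Of its exons, 67.3% overlap Gse1 on the other strand, and the strand setting of the counting is not given in the sources used here, so its level is uncertain. Gins4 (ENSMUSG00000031546, chr8:23226616-23237659, minus strand), another GINS subunit, stood at 23.1, 22.9 and 23.2 CPM in AC tumours, 23.9, 22.6 and 25.3 CPM in model tumours, and 23.9, 17.5 and 16.5 CPM in Sham colon. Sham 1 overlapped with the tumours, and Sham 2 and Sham 3 lay below them. Gins4 had a log2 fold change of 0.32 (95% interval -0.19 to 0.82, edgeR adjusted p = 0.216). Gins1 had 1.08 (adjusted p = 0.064) and Gins3 had 1.45 (adjusted p = 0.0547) in the same edgeR test. Without Sham 1, Gins1, Gins3 and Gins4 were called higher, at 1.75, 2.40 and 0.53 on the log2 scale. Cdc45, which joins MCM2-7 and GINS in the active helicase, rose by 2.58, and Mcm10, which helps to start the helicase, by 1.72. Without Sham 1 they rose by 3.42 and 2.25, which put Cdc45 above Gins2.

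All 6 genes of the polymerases and primase rose, and they included the largest difference of the 41. Pole (ENSMUSG00000007080, chr5:110286306-110337474, plus strand), the catalytic subunit of the leading-strand polymerase epsilon, stood at 76.4, 74.1 and 81.7 CPM in AC tumours, 102, 99.0 and 79.9 CPM in model tumours, and 13.4, 5.86 and 6.10 CPM in Sham colon. All tumours lay well above all colon libraries, and Sham 1 was highest of the colon libraries. Pole rose by 3.48 on the log2 scale in model tumours against Sham (SE 0.395, edgeR adjusted p = 0.00037), a fold of 11.1, and by 4.0 without Sham 1. Pola2 (ENSMUSG00000024833, chr19:5940542-5964202, minus strand), the accessory subunit of polymerase alpha, changed least of the 6, at 59.6, 54.5 and 52.0 CPM in AC tumours, 49.8, 55.2 and 53.6 CPM in model tumours, and 18.7, 15.9 and 18.2 CPM in Sham colon. Its 3 colon libraries were alike, Sham 1 included, and none came near the tumours. Pola2 rose by 1.60 (SE 0.143, edgeR adjusted p = 0.000139), and by 1.67 without Sham 1. Pola1, the catalytic subunit that extends the primer, stood at 78.3, 72.9 and 93.5 CPM in AC tumours, 95.9, 89.7 and 94.9 CPM in model tumours, and 24.6, 5.22 and 4.61 CPM in Sham colon. Sham 1 had several times the Pola1 level of the other colon libraries, and the log2 fold change was 3.01 with Sham 1 and 4.29 without it. Pold1, the catalytic subunit of the lagging-strand polymerase delta, rose by 2.99, and the primase subunits Prim1 and Prim2 by 2.17 and 2.05. Without Sham 1 the values were 3.5 for Pold1, 3.22 for Prim1 and 2.69 for Prim2.

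The sliding clamp and 3 of the 5 subunits of its loader rose. Pcna (ENSMUSG00000027342, chr2:132249162-132253314, minus strand), the clamp, stood at 307, 311 and 283 CPM in AC tumours, 277, 277 and 300 CPM in model tumours, and 116, 47.8 and 44.1 CPM in Sham colon. Tumours and colon did not overlap, and the log2 fold change in model tumours against Sham was 2.03 (SE 0.416, edgeR adjusted p = 0.00451), and 2.66 without Sham 1. A processed pseudogene, Pcna-ps2, is 99.2% identical to the Pcna transcript over 781 bases and took 1.48, 1.27 and 1.31 CPM in AC tumours, 1.38, 1.23 and 1.35 CPM in model tumours, and 76.8, 21.2 and 16.9 CPM in Sham colon. The pseudogene thus held 38.3 to 66.1% as many counts as Pcna in colon and at most 0.5% in tumours, and which of the 2 loci those reads came from was not tested. With the counts of Pcna-ps2 added to Pcna, a choice made after seeing the data, the log2 fold change was 1.4 (SE 0.472, edgeR adjusted p = 0.0342). Rfc2 (ENSMUSG00000023104, chr5:134581366-134601805, plus strand), a small subunit of the loader, stood at 68.6, 56.2 and 59.2 CPM in AC tumours, 56.9, 53.4 and 60.0 CPM in model tumours, and 55.2, 57.6 and 55.3 CPM in Sham colon. The groups of Rfc2 overlapped, Sham 1 did not stand out, and the log2 fold change was 0.03 with Sham 1 and 0.04 without it (with it, 95% interval -0.25 to 0.32, edgeR adjusted p = 0.802). Its sign turned with DESeq2's size factors (-0.06), and with library totals in place of TMM factors, where the median of all genes moved to 0.724, Rfc2 was called higher at 0.64. Lat2 overlaps 15.1% of the exons of Rfc2 on the other strand. Rfc1, the large subunit, rose by 1.53, Rfc3 by 1.65 and Rfc5 by 1.45, and Rfc4 was not called at 0.85 (edgeR adjusted p = 0.147) but was higher without Sham 1 at 1.59. Rfc1, Rfc3 and Rfc5 had 2.03, 2.18 and 1.76 without Sham 1.

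Both single-strand binding genes, whose products coat the unwound DNA, rose by small margins. Rpa1 (ENSMUSG00000000751, chr11:75298166-75348324, minus strand) stood at 135, 128 and 115 CPM in AC tumours, 141, 130 and 110 CPM in model tumours, and 91.7, 34.8 and 29.3 CPM in Sham colon. Rpa2 (ENSMUSG00000028884, chr4:132768332-132778752, plus strand) stood at 31.0, 35.6 and 27.2 CPM in AC tumours, 29.7, 26.6 and 31.4 CPM in model tumours, and 22.3, 7.71 and 8.72 CPM in Sham colon. In both genes Sham 1 came close to the lowest tumour without reaching it. The log2 fold changes in model tumours against Sham were 1.29 for Rpa1 (SE 0.468, edgeR adjusted p = 0.0438) and 1.17 for Rpa2 (SE 0.442, edgeR adjusted p = 0.0498), and 2.03 and 1.86 without Sham 1.

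Both genes that finish Okazaki fragments rose. Fen1 (ENSMUSG00000024742, chr19:10199132-10204169, minus strand), the flap endonuclease, stood at 6.95, 7.20 and 5.25 CPM in AC tumours, 5.78, 4.87 and 5.5 CPM in model tumours, and 0.935, 0.963 and 0.355 CPM in Sham colon. Fen1 rose by 2.85 on the log2 scale (SE 0.429, edgeR adjusted p = 0.00119), and by 3.08 without Sham 1, on the lowest counts of the 41 genes, down to 5 reads in Sham 3. Its exons overlap Gm10143 and Tmem258 on the other strand over 84.2% of their length, so its level is uncertain. Lig1 (ENSMUSG00000056394, chr7:13277283-13311433, plus strand), the ligase that seals the nicks, stood at 74.7, 71.8 and 90.1 CPM in AC tumours, 110, 99.4 and 90.3 CPM in model tumours, and 31.6, 15.8 and 16.6 CPM in Sham colon. Colon was below both tumour groups in every library, and AC tumours were below model tumours in every library by a small margin. In model tumours against Sham, Lig1 rose by 2.23 (SE 0.326, edgeR adjusted p = 0.00105), and by 2.66 without Sham 1.

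The 4 nucleotide supply genes rose. Rrm1 (ENSMUSG00000030978, chr7:102441695-102469771, plus strand), the large subunit of ribonucleotide reductase, stood at 194, 184 and 206 CPM in AC tumours, 214, 209 and 221 CPM in model tumours, and 65.3, 27.9 and 27.4 CPM in Sham colon. Every tumour lay above every colon library, and the log2 fold change of Rrm1 was 2.41 (SE 0.391, edgeR adjusted p = 0.00163), and 2.99 without Sham 1. For Rrm2, the small subunit that limits the enzyme in S phase, it was 2.18, and 3.15 without Sham 1. Tyms (ENSMUSG00000025747, chr5:30058202-30073617, minus strand), thymidylate synthase, changed least, at 41.9, 36.5 and 38.6 CPM in AC tumours, 35.2, 32.2 and 36.8 CPM in model tumours, and 29.1, 16.5 and 17.9 CPM in Sham colon. The lowest model library was just above Sham 1, and Tyms rose by 0.72 (SE 0.266, edgeR adjusted p = 0.047), and by 1.05 without Sham 1. Tk1, the thymidine kinase of S phase, had 17.8, 17.3 and 18.9 CPM in Sham colon, so Sham 1 did not stand out, and 54.5 to 61.9 CPM in model tumours, where it rose by 1.72 on the log2 scale (SE 0.142, edgeR adjusted p = 0.000102), and by 1.73 without Sham 1.

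Among the 4 G1/S regulators, the activating factors E2f1 and E2f2 moved in opposite directions. E2f1 (ENSMUSG00000027490, chr2:154559407-154569892, minus strand) stood at 42.0, 46.7 and 50.8 CPM in AC tumours, 50.9, 46.5 and 51.1 CPM in model tumours, and 5.92, 4.82 and 4.18 CPM in Sham colon. E2f2 (ENSMUSG00000018983, chr4:136172394-136196057, plus strand) stood at 15.2, 14.8 and 13.6 CPM in AC tumours, 16.7, 14.1 and 16.3 CPM in model tumours, and 41.7, 31.5 and 29.9 CPM in Sham colon. For E2f1 every tumour was above every colon library, and for E2f2 every tumour was below. In model tumours against Sham, E2f1 rose by 3.33 on the log2 scale (SE 0.207, edgeR adjusted p = 4.14e-05), and by 3.5 without Sham 1. E2f2 fell by 1.12 (SE 0.209, edgeR adjusted p = 0.003), and by 0.93 without Sham 1, and it was the gene of the 41 that was called lower, against 32.9% of all genes. With library totals in place of TMM factors, E2f2 was not called, at -0.52 (edgeR adjusted p = 0.0706), below the median of all genes at 0.724 under that scaling. Ccne2 (ENSMUSG00000028212, chr4:11191351-11204779, plus strand), a cyclin E that activates the kinase of the G1/S transition, stood at 41.7, 46.5 and 45.2 CPM in AC tumours, 38.4, 42.3 and 40.9 CPM in model tumours, and 27.4, 13.0 and 16.0 CPM in Sham colon. Ccne2 rose by 1.11 (SE 0.306, edgeR adjusted p = 0.0158) and Ccne1, the other cyclin E gene, by 1.47 (SE 0.208, edgeR adjusted p = 0.000937), with no overlap between tumours and colon in either. Without Sham 1 they rose by 1.51 and 1.65. Exons of Ints8 on the other strand cover 17.4% of those of Ccne2.

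**Figure D2:**
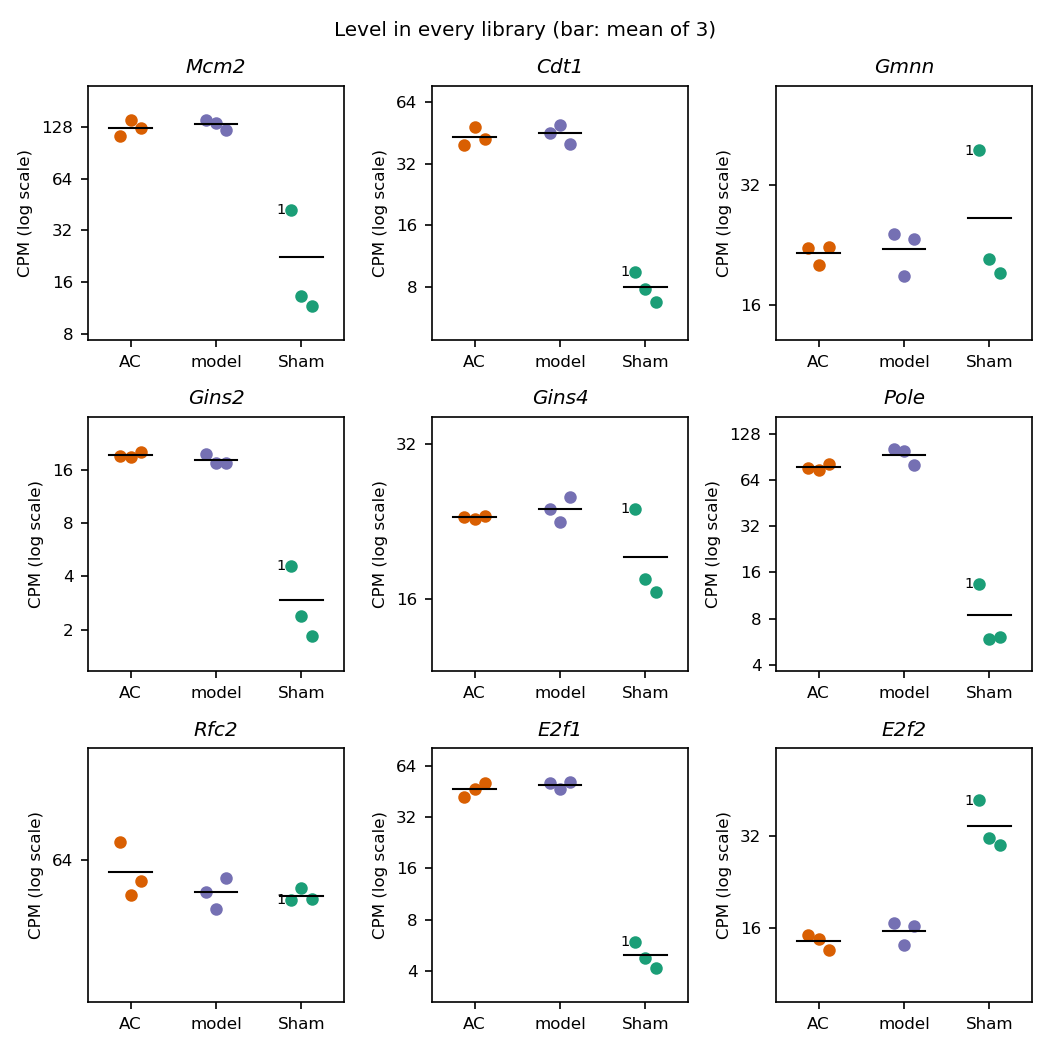
CPM in every library on a log scale for 9 of the 41 genes, with AC, model and Sham from left to right, bars at the group means and the Sham 1 point labelled. Mcm2, Cdt1, Gins2, Pole and E2f1 were higher in all tumours, E2f2 was lower in all tumours, and Gmnn, Gins4 and Rfc2 overlapped between tumours and colon.

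Leaving out a library other than Sham 1 ended the call of up to 6 of the 35 genes called in model tumours against Sham, namely Cdc6, Mcm4, Orc1, Rpa1, Rpa2 and Tyms. Without Sham 2, Sham 3 or model 3, all 6 were lost, and without model 1 or model 2 all but Orc1 were. Over these 5 fits the edgeR adjusted p of the lost calls ran from 0.0573 (Mcm4 without model 3) up to 0.144 (Tyms without Sham 2). Every log2 fold change was still above 0. The other 29 genes were called in every such fit. Without Sham 1 there were 38 genes called higher and 1 lower, against 42.4% of all genes called higher and 7086 of 19464 lower. The median log2 fold change of the 41 genes was then 2.5. In that fit 18 genes moved by more than 1.5-fold, and Gmnn and Rfc2 were the 2 genes not called. Rpa2 and Tyms were also lost with DESeq2's size factors (adjusted p = 0.0543 and 0.0571) and with a filter at 1 CPM, and Mcm4 and Rpa1 with no filter on low counts.

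Against the same Sham libraries, AC tumours gave 34 genes higher, 1 lower and 6 not called in edgeR's test, with 35.5% of all genes called higher and 32.7% lower. The median log2 fold change of the 41 genes was 1.75 (range -1.25 to 3.22), against 0.10 over all 17832 genes. An unadjusted p under 0.05 was found for 36 of the 41 genes and for 71.2% of all genes. Every AC library lay above every Sham library for 36 genes, against 40.5% of all genes, and below for 1 gene, against 35.3%. Because both comparisons share the Sham libraries, their values are set side by side only. Pole had 3.18 in AC tumours and 3.48 in model tumours, E2f1 had 3.22 and 3.33, Cdt1 had 2.44 and 2.51, and E2f2 had -1.25 and -1.12. Without Sham 1 the values in AC tumours were 3.63 for Pole, 3.3 for E2f1, 2.51 for Cdt1 and -1.15 for E2f2. Gins3, at 1.54 (edgeR adjusted p = 0.0469), was called in AC tumours and not in model tumours, and Cdc6, at 1.18 (0.0525), was called in model tumours and not in AC tumours. Those differences in call are not tests of AC against model. Gins3, Mcm4, Orc1, Rpa1 and Rpa2 were lost without any library of the comparison other than Sham 1, and Tyms without AC 1, AC 3, Sham 2 or Sham 3, at adjusted p up to 0.115. Without Sham 1, 38 genes were higher against 38.7% of all genes, with a median of 2.30. With library totals in place of TMM factors, the calls over all genes in AC tumours were 8832 higher and 4114 lower, against 6339 and 5826 with TMM, and in model tumours they were 9060 higher and 4405 lower, against 6700 and 5997. Gmnn had -0.30 in AC tumours against Sham with TMM and 0.34 with library totals, and was not called with either.

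The comparison of AC with model tumours asks whether the herb pair changed these genes in the tumour, and no gene of the 41 was called. Over all 17137 genes tested, 0.0% were called by edgeR, 13.1% had an unadjusted p under 0.05, DESeq2 called 305 genes and limma-voom none. None of the 41 was called by edgeR, DESeq2 or limma-voom. By edgeR, 2 of the 41 had an unadjusted p under 0.05. Log2 fold changes ran from -0.34 to 0.26 with a median of -0.03, with 16 above 0 and 25 below, against a median of 0.01 over all genes. Every AC library lay above every model library for 1 gene, Rfc4, against 9.06% of all genes. Every AC library lay below every model library for 3 genes, Lig1, Pold1 and Rrm1, against 9.99% of all genes.

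Lig1 had the largest difference, with 74.7, 71.8 and 90.1 CPM in AC tumours against 110, 99.4 and 90.3 CPM in model tumours. AC 3 was within 1 CPM of model 3, while AC 1 and AC 2 were further below. The log2 fold change of Lig1 was -0.34 (95% interval -0.61 to -0.07, edgeR adjusted p = 0.305, and 0.0552 to 0.95 over the alternatives). Pole followed at -0.28 (95% interval -0.53 to -0.02, edgeR adjusted p = 0.348), with AC 3 at 81.7 CPM above model 3 at 79.9 CPM. Fen1 was at the other end at 0.26, with the widest interval (-0.20 to 0.72), and Cdc45 was next at 0.23 (-0.02 to 0.47). Both are named for their values, as are Lig1, Pole, Rfc4, Pold1 and Rrm1.

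The intervals limit how large a difference these libraries leave room for, gene by gene. For Mcm5 the 95% interval in AC against model tumours was -0.19 to 0.14, for Mcm6 -0.22 to 0.12 and for Pcna -0.10 to 0.26. For Cdt1 it was -0.33 to 0.21, for Gmnn -0.33 to 0.26, for E2f1 -0.33 to 0.15 and for E2f2 -0.41 to 0.19. The 6 MCM2-7 genes all had values below 0, from -0.10 to -0.03, and in none of them did the groups separate. Epithelial markers were highest in AC 3 and model 1, at summed levels of 956 and 530 CPM, and with both left out 94 genes were called over all genes and none of the 41. With AC 3 alone left out, edgeR called 569 genes and again none of the 41, with Lig1 at -0.46 (adjusted p = 0.0552).

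**Figure D3:**
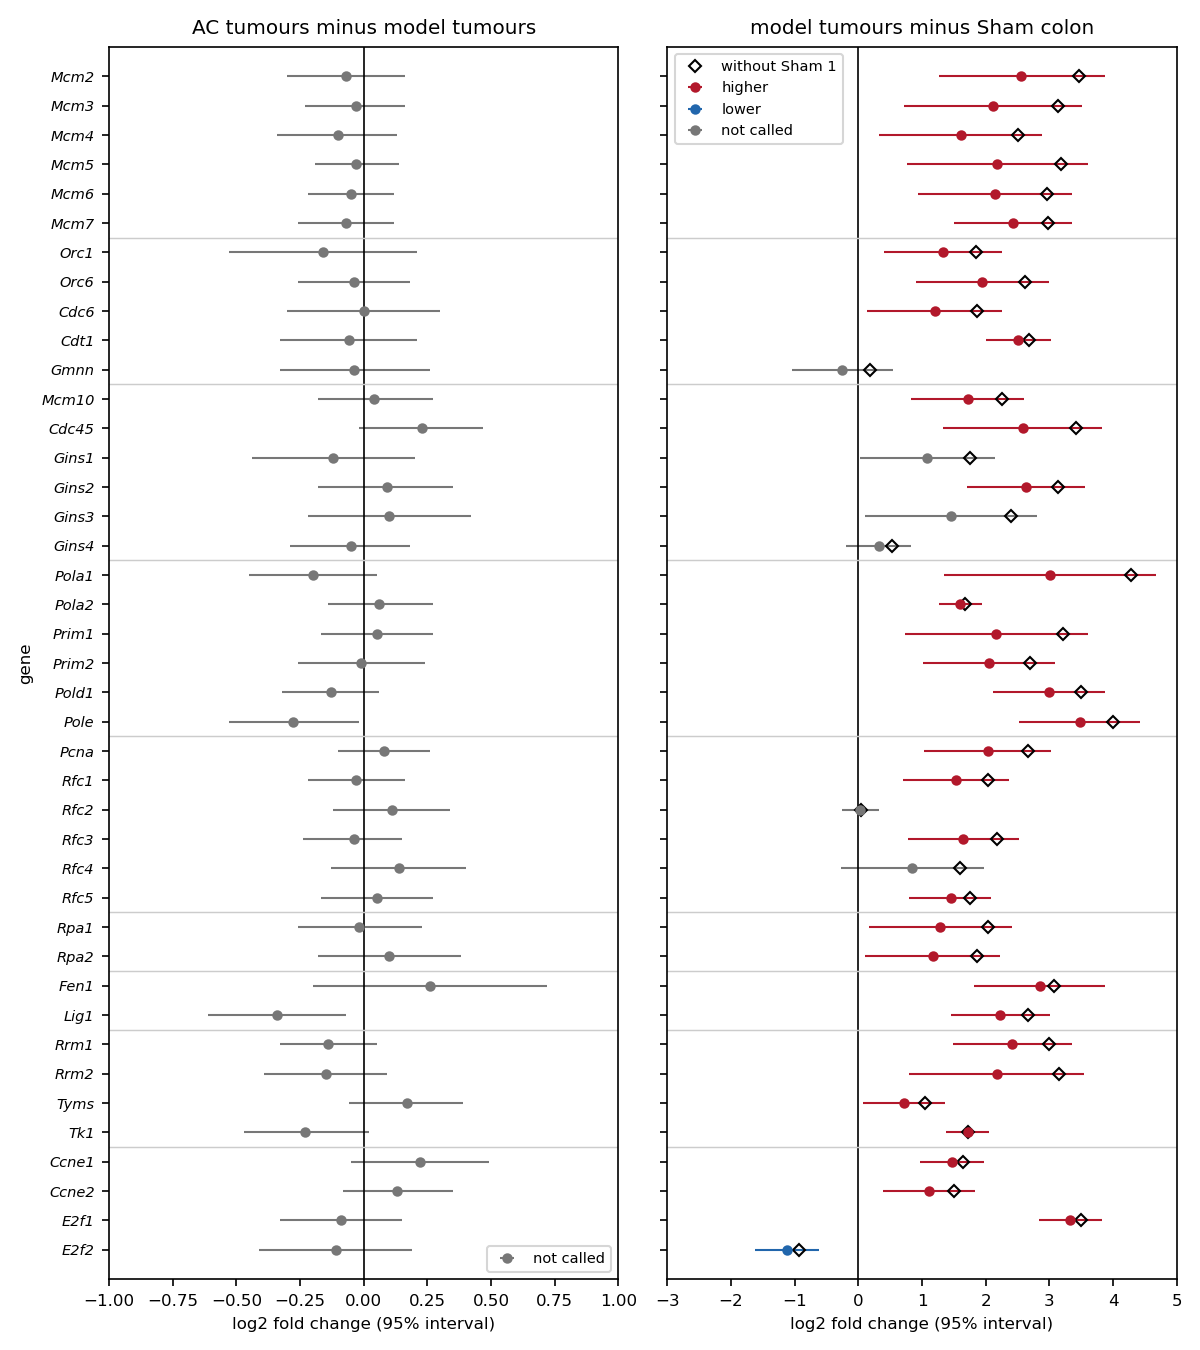
Log2 fold change of each gene with its 95% interval in AC minus model tumours (left) and in model tumours minus Sham colon (right), with filled circles coloured by the edgeR call at adjusted p 0.05 and open diamonds for the fit without Sham 1. All 41 intervals on the left lie within -1 to 1, and the points on the right run from -1.12 for E2f2 to 3.48 for Pole.

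The genes of G2 and mitosis, 28 in a list of their own, were set beside them in the same libraries. In AC against model tumours their median log2 fold change was -0.31, with 27 of 28 below 0 and 20 with every AC library below every model library (9.99% of all genes), but none was called by edgeR and 19 had an unadjusted p under 0.05 (13.1% of all genes). Their summed level was 3620, 3320 and 3580 CPM in AC tumours and 4250, 4160 and 4500 CPM in model tumours, without overlap. In the same libraries, 7 of 8 fibroblast markers were below 0, with a median of -0.49, 4 of them without overlap, and a summed level of 1290, 1300 and 1740 CPM in AC tumours and 2300, 1830 and 1970 CPM in model tumours. All 7 T cell markers tested were below 0, with a median of -0.67, 3 of them without overlap, and a summed level of 19.1, 15.0 and 23.6 CPM in AC tumours and 31.0, 23.0 and 32.8 CPM in model tumours. Other marker lists differed in direction. All 7 smooth muscle markers tested were above 0 (median 1.05), as were 8 of 9 epithelial markers (median 0.84). Of 8 macrophage markers, 5 were above 0 and 3 below (median 0.15), and all 4 B cell markers tested were below 0 (median -1.38). The part of any of these markers in the G2 and mitosis values was not tested. The replication genes summed to 2880 to 2920 CPM in AC tumours and 2920 to 3080 CPM in model tumours. Before rounding, these sums did not overlap either. The difference between the lists was not tested. In model tumours against all 3 Sham libraries, all 28 genes were called higher, with a median of 2.83, against 36.8% of all genes. Without Sham 1 all 28 were called higher, with a median of 3.62, against 42.4% of all genes. With all libraries, the smallest adjusted p were those of Anln, an actin-binding protein of cell division (5.52), Foxm1, a transcription factor of the G2 genes (4.60), and Cenpf, a kinetochore protein (3.94).

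A further list of 41 replication genes outside the set behaved unevenly in model tumours against Sham, with 26 higher, 1 lower and 14 not called, and a median of 1.62, where 36.8% of all genes were called higher and 32.9% lower. Without Sham 1, 36 were higher, 1 was lower and 4 were not called, with a median of 2.19. Over all genes in that fit, 42.4% were called higher and 7086 of 19464 lower. The fits of these other lists without Sham 1 were chosen after seeing the data. Those with the smallest adjusted p were Chaf1a, the large subunit of the chromatin assembly factor at forks (3.31), Pole2, another subunit of polymerase epsilon (2.75), and Ctc1, a subunit of the telomere-bound CST complex (1.85). Pold3, an accessory subunit of polymerase delta, stood at 37.2, 35.9 and 38.1 CPM in model tumours and 59.4, 57.4 and 59.1 CPM in Sham colon, and fell by 0.64. Subunits of a single complex thus differed in call, as in the set itself: Pole2 and Pole3 rose while Pole4 had 0.05 and was not called, and Orc2 and Orc4 rose while Orc3 and Orc5 had 0.23 and 0.34 and were not called. Without Sham 1, Pole4, Orc3 and Orc5 were called higher as well, at 0.52, 0.25 and 0.70. These subunits were picked as examples after their values were seen, as were Pola1 and Tk1 above. In AC tumours against Sham the same list gave 25 higher, 1 lower and 15 not called, where 35.5% of all genes were called higher and 32.7% lower. In AC against model none of the list was called, and 0.0% of all genes were. The median log2 fold change of the list there was -0.02, with 19 genes above 0 and 22 below. Every AC library lay below every model library for 8 of the 41 genes (9.99% of all genes). Every AC library lay above for 2 (9.06% of all genes). By edgeR, 5 had an unadjusted p under 0.05 (13.1% of all genes).

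Of 23 other genes that control the G1/S transition, 15 rose, 3 fell and 5 were not called in model tumours against Sham, where 36.8% of all genes were called higher and 32.9% lower. Without Sham 1, 16 rose, 5 fell and 2 were not called, where 42.4% of all genes were called higher and 7086 of 19464 lower. Cdk6 (3.5) and its partner Ccnd1 (4.42), which inactivate the retinoblastoma protein, and E2f8 (3.87), an E2F repressor, had the smallest adjusted p among those that rose. Ccnd1 was at 596, 599 and 565 CPM in model tumours and 16.4, 30.2 and 37.1 CPM in Sham colon. Cdc25a, a phosphatase that activates the G1/S kinases, fell by 1.75, Rb1, the retinoblastoma gene, by 1.78 and E2f5, an E2F repressor, by 1.39. Rb1 was at 46.9, 54.4 and 49.3 CPM in model tumours and 169, 166 and 186 CPM in Sham colon, without overlap and with Sham 1 beside the others.

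Levels of different genes were compared within a library on the FPKM scale, which divides by gene length. Pcna had the highest level of the 41 in every group, with 146 ± 5.89 FPKM in AC tumours, 136 ± 8.72 FPKM in model tumours and 22 ± 14.4 FPKM in Sham colon (SD, n = 3 each). In tumours Rrm2 came next at 59.3 ± 4.88 FPKM in AC and 64.4 ± 6.54 FPKM in model. In Sham colon Gmnn came next at 13.6 ± 6.67 FPKM, while it ranked 17 in AC and 18 in model tumours, and Gins4 ranked 3 in colon and 15 in both tumour groups. E2f2 ranked 39 in both tumour groups and 12 in colon.

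Ratios within each library do not depend on how libraries were scaled. The FPKM of Cdt1 over that of its inhibitor Gmnn was 0.833, 1.12 and 0.882 in AC tumours, 0.88, 1.23 and 0.802 in model tumours, and 0.112, 0.174 and 0.164 in Sham colon. The ratio of E2f1 to E2f2 was 4.27, 4.88 and 5.80 in AC tumours, 4.73, 5.12 and 4.86 in model tumours, and 0.22, 0.237 and 0.216 in Sham colon. Tumours and colon did not overlap in either ratio, and Sham 1 was within the colon range for E2f1 over E2f2 and the lowest library for Cdt1 over Gmnn. These 2 ratios were chosen after their values were seen.

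Subunits of the same complex were closer to each other in level in tumours than in colon for MCM2-7 and GINS. The highest MCM2-7 subunit over the lowest was 1.98 to 2.40 by FPKM in AC tumours, 2.06 to 2.28 in model tumours and 3.08 to 3.40 in Sham colon. For GINS the same ratio was 3.51 to 3.69 in AC tumours, 3.70 to 4.39 in model tumours and 15.8 to 27.2 in Sham colon, where Gins4 was the highest subunit and Gins2 the lowest. Gins2 was also the lowest subunit in the tumours. Of its exons, 67.3% overlap Gse1 on the other strand, so its level and the GINS ratio are uncertain. For RFC it was 1.95 to 2.44 in AC tumours, 2.18 to 2.81 in model tumours and 2.32 to 3.6 in Sham colon, with overlap between tumours and colon.

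**Figure D4:**
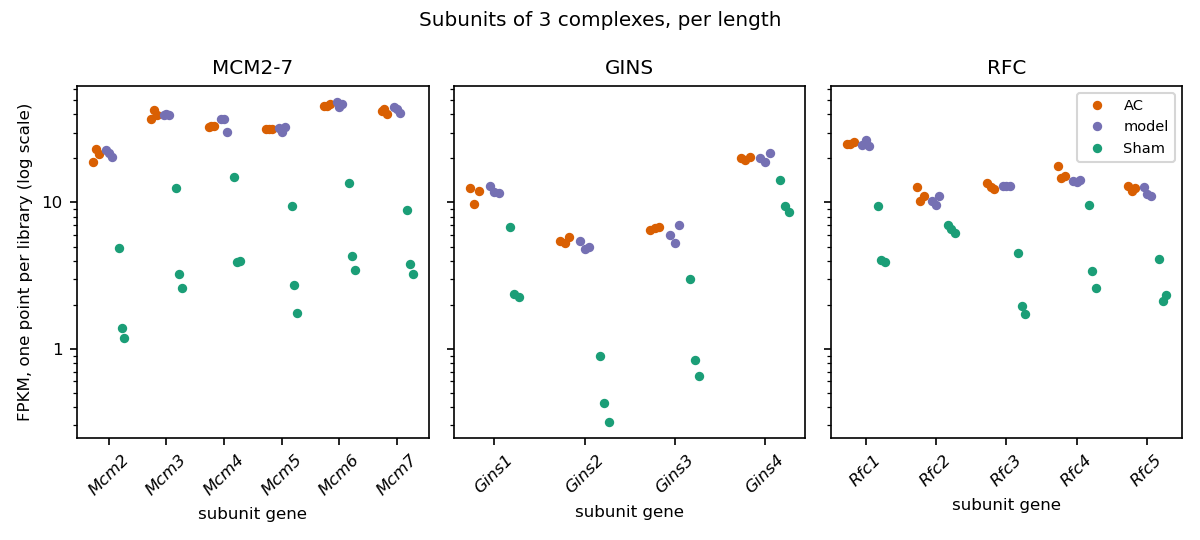
FPKM of each subunit of the MCM2-7, GINS and RFC complexes on a log scale, with 1 point per library and AC, model and Sham from left to right at each gene. The Sham points of Gins4 and Rfc2 lie nearest to their tumour points, and within each Sham library Gins2 is the lowest of the GINS subunits. The level of Gins2 is uncertain, since its exons overlap Gse1 on the other strand.

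Sham 1 set much of the spread in colon. Over the 40 genes with a mean of at least 1 CPM in Sham 2 and Sham 3, the level in Sham 1 over that mean had a median of 2.26 and ran from 0.977 to 5.01, and it was above 1.5 in 32 genes (80.0%), against a median of 0.917 and 19.0% over all 14963 genes at that level. The ratio was highest for Pola1 (5.01), and the 6 MCM2-7 genes had a median of 3.41. Rfc2 (0.977), Tk1 (0.988), Pola2 (1.10), Cdt1 (1.30), E2f1 (1.32), Ccne1 (1.35), E2f2 (1.36) and Gins4 (1.41) did not pass 1.5. In the same library all 8 B cell markers were above 1.5, with a median ratio of 9.78 and a summed level of 1080 CPM in Sham 1 against 135 CPM in Sham 2 and 70.6 CPM in Sham 3. In tumours this sum was 2.71 to 5.04 CPM in AC and 5.97 to 22.2 CPM in model, with Ms4a1 at 0 in AC 1. Of the germinal centre B cell markers, which mark B cells dividing fast in lymphoid follicles, 6 of 7 were above 1.5, with a summed level of 462 CPM in Sham 1 against 98.9 and 88.5 CPM. That sum was 183, 170 and 156 CPM in AC tumours and 151, 144 and 179 CPM in model tumours, above Sham 2 and Sham 3. The list was thus not particular to germinal centre B cells in these libraries, since B cell markers were low in tumours. All 8 smooth muscle markers were lower there, with a summed level of 280 CPM in Sham 1 against 1750 and 1890 CPM. No marker of these 3 lists with a value here was at 0 in Sham 1, and their part in the level of the replication genes was not tested. The genes of G2 and mitosis had a median ratio of 2.55 in Sham 1. T cell markers had a median ratio of 3.42, with 5 of 7 above 1.5 and the lowest at 0.528, and their part was not tested either.

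**Figure D5:**
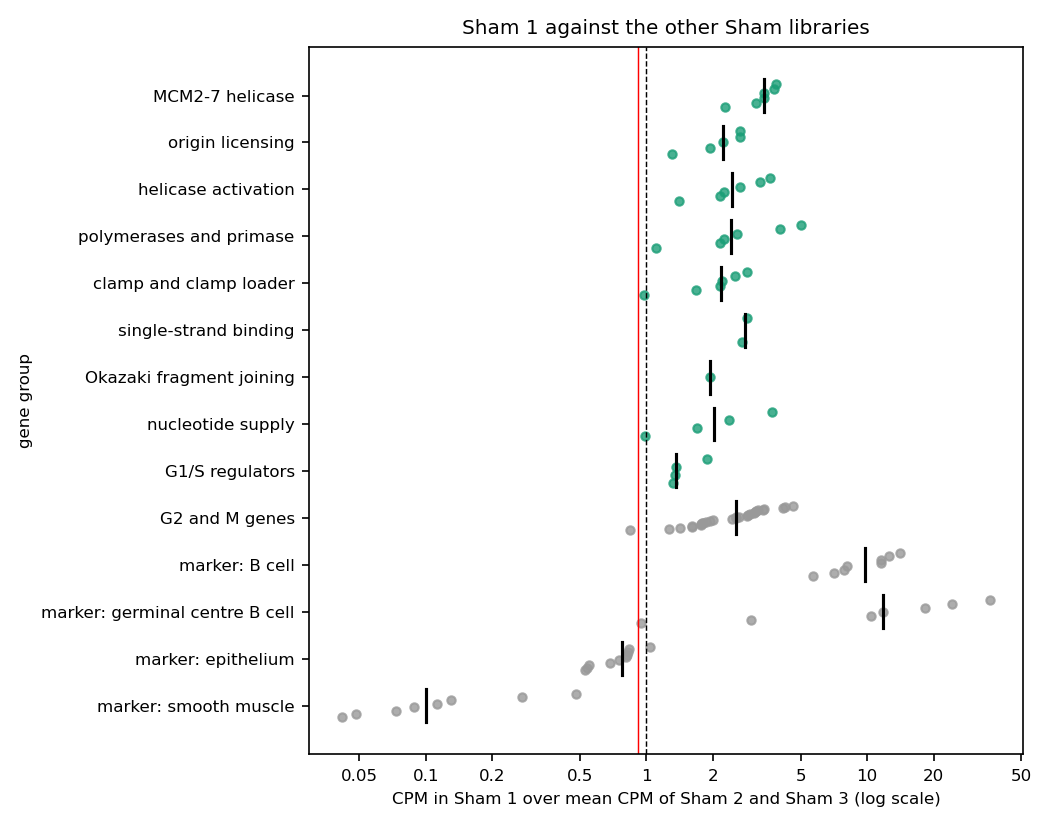
CPM in Sham 1 over the mean CPM of Sham 2 and Sham 3 on a log axis, with 1 point per gene, a black bar at each list's median, the dashed line at 1 and the red line at the median of all genes, 0.917. Replication genes (green) lie mostly between 1 and 5, B cell and germinal centre markers mostly lie above 5, and smooth muscle markers lie below 0.5.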

How the data were processed

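Raw read counts per gene and FPKM values of 9 libraries were deposited by the authors. The counts were made with featureCounts 1.5.0-p3, and the build named is mm9, per the submitters' processing notes; aligner and strand setting: not given in the sources used here. Deposited FPKM values are counts per gene length and total count. The implied lengths lay within 1% of GENCODE M21 (GRCm38) exons for 40 of the 41 genes, and symbols and coordinates come from that annotation. The exception was Pola2, with an implied length of 2872 bases against 8294 bases of exons in that annotation. The 41 genes and all lists were chosen with earlier results of these data known.

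For every comparison a fit of the 6 libraries concerned was made (edgeR 4.0.16, R 4.3.3, filterByExpr, TMM factors, robust glmQLFit and glmQLFTest, Benjamini-Hochberg over all genes tested, threshold 0.05). DESeq2 1.42.0 and limma 3.58.1 (voom) were alternatives, with other scalings, filters, a replicate block and each library left out. Standard errors and 95% intervals come from the edgeR fit. The script was tested on simulated data. Values in every library are given for the genes with the largest and smallest change of each role and for those against its direction; from other lists, up to 3 with the smallest adjusted p in each direction are named, and others are examples. Copies of the genes among annotated pseudogenes were sought with BLAST+ 2.17.0 (at least 90% identity over 200 bases). Total counts were 15690038 to 23476056, so that 3 counts equal 0.128 to 0.191 CPM.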

Additional observations from a re-analysis of the deposited data

How the results depend on the processing

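No gene of the 41 was called in AC against model tumours under any alternative run. Over all genes, the count there was 0 with edgeR, 105 with no low-count filter, 305 with DESeq2 and 94 without model 1 and AC 3 together, and 0 to 569 with single libraries left out, the highest without AC 3; the cause was not tested. The number of genes called higher ran from 28 to 39 in model tumours against Sham and from 28 to 39 in AC tumours against Sham over all alternatives (28 to 38 with single libraries left out), against 34 in each. The 1 gene called lower in model tumours was E2f2, and it became 0 with library totals in place of TMM factors. Values of genes that turned sign were all small: Gmnn at 0.35 in model and 0.34 in AC tumours with library totals, and at 0.18 and 0.04 without Sham 1 (with single libraries left out, -0.51 to 0.18 in model and -0.5 to 0.04 in AC tumours); Rfc2 in model tumours at -0.06 with DESeq2's size factors, -0.06 with DESeq2, -0.03 without Sham 2 and -0.06 without Sham 3 (-0.06 to 0.12 with single libraries left out). Replicate numbers are shared between groups, but no label says that they pair samples, and the deviations of same-numbered libraries correlated at -0.528, 0.435 and -0.312 between AC and model, -0.059, 0.005 and -0.102 between model and Sham, and 0.134, -0.006 and 0.083 between AC and Sham, so the numbers were not taken as pairs. With the replicate block, 36 genes were higher in model and 36 in AC tumours against Sham, and 0 of the 41 and 0 of all genes were called in AC against model. Depth limits Fen1 most, with 5 reads in Sham 3, the lowest count of the 41 genes in any library.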
